A study of Saccharomyces cerevisiae with 18 samples.

Results

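The RPS genes of Saccharomyces cerevisiae encode the proteins of the small (40S) cytosolic ribosomal subunit. A transcript feature was included where one of its open reading frames (ORFs) has a symbol in the R64 reference annotation made of RPS, a number and an optional A or B. This gave 37 of the 4105 features that hold a single-nucleotide variant (SNV) between the parental strains, and they carry 37 of the 56 RPS genes. The other 19 RPS genes, among them RPS2, RPS3, RPS15 and RPS20, held no SNV and gave no value. Of the 37 features, 21 held the RPS gene alone and 16 also held at least 1 other ORF, whose reads cannot be separated from those of the RPS gene. The features held 206 SNVs and 254175 allelic reads, which are reads assigned to a parent at an SNV, or 1.87% of all 13626796. RPS13 (33401 reads), RPS25A (25013), RPS9B (19922) and RPS0B (18675) were among the deepest, and 1 of the 37 features, with 3 reads, was outside the deposited table of the whole series. Counts below cover all features, while values are given for a named subset.

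The cells were 1 diploid hybrid of a laboratory strain, BY4716 (BY), and a vineyard strain, RM11-1a (RM). Each parent brought in rpb1-1, which makes the largest subunit of RNA polymerase II temperature-sensitive, so every library came from cells with this mutation. The hybrid grew in rich medium with dextrose (YEPD) at 24 °C, hot medium brought it to 37 °C to inhibit transcription, and poly(A) RNA of 3 independent cultures was sequenced just after the shift (0 min) and at 5 later times (6 min, 12 min, 18 min, 24 min and 42 min). The study asked whether the 2 parental transcripts of a gene decay at different rates. No culture was kept at 24 °C or carried wild-type RPB1 among the samples used here, so the heat and the loss of transcription cannot be told apart.

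Ribosomal proteins are made in matched amounts and are built into pre-ribosomes in the nucleolus, where the 18S rRNA is folded and cut. In growing yeast their genes are among the most transcribed by RNA polymerase II, under Rap1, Fhl1, Ifh1 and Sfp1, which follow nutrient and stress signals. Many are present as a pair of A and B copies, and yeast introns are concentrated in them.

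The near-identical copies can bear on the values below, since a read can be assigned to a parent and to a gene only where the sequences differ. Of the 37 RPS genes in the features, 30 had a near copy (90% or more identity along 100 bases or more), and 25 had an intron. The last 60 coding bases of 2 pairs, up to the stop codon, are printed from the R64 genome (sacCer3), 5′ to 3′ on the coding strand, with capitals at the bases that differ between the copies. They are shown because the results on parental shares turn on these pairs: RPS0A at chrVII:921729-921788 (plus strand) and RPS0B at chrXII:243290-243349 (plus strand), RPS6A at chrXVI:377291-377350 (minus strand) and RPS6B at chrII:591712-591771 (minus strand).
RPS0A: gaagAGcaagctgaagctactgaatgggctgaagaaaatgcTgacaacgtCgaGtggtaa
RPS0B: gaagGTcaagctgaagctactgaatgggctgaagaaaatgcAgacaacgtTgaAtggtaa
RPS6A: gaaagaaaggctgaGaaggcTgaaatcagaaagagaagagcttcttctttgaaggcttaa
RPS6B: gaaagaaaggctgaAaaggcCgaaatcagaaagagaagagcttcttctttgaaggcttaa
In this stretch RPS0A and RPS0B differed at 5 bases, and RPS6A and RPS6B at 2. Over the aligned coding sequence RPS6A and RPS6B were 99.2% identical (6 mismatches in 711 bases) and RPS0A and RPS0B 90.3% (68 in 762). Reads were 50 bases long. Of all windows of 50 coding bases, 72.1% of those of RPS6A and RPS6B occurred unchanged in the other copy, against 0.0% of those of RPS0A and RPS0B.

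The RPS features together took 2.31% of the allelic reads of a library at 0 min and 1.06% at 42 min. The summed share was 2.54, 2.21 and 2.17% in cultures 1, 2 and 3 at 0 min and 1.16, 1.20 and 0.820% at 42 min. All 3 libraries of 42 min were below all 3 of 0 min, and the ratio of 42 to 0 min was 0.455, 0.543 and 0.378 in the 3 cultures. Between 0 and 12 min the mean moved from 2.31% ± 0.205 (SD, n = 3) to 2.32% ± 0.0987 at 6 min and 2.23% ± 0.107 at 12 min, less than the spread between cultures. Within cultures 1, 2 and 3 the ratio of 12 to 0 min was 0.926, 0.991 and 0.993, below 1 in each. It was 1.75% ± 0.231 at 18 min, 1.47% ± 0.204 at 24 min and 1.06% ± 0.207 at 42 min. Such a share does not give the number of molecules per cell, since it also depends on the other transcripts, and in bulk cultures fewer cells with a transcript and less of it per cell cannot be told apart. Library totals ran from 439453 to 1180513 allelic reads, apart from 74320 in the library of culture 3 at 18 min. As a check of the cross, LYS2, which is deleted in BY4716, had 0.609% ± 0.528 (SD, n = 3) BY reads at 0 min.

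**Figure D1:**
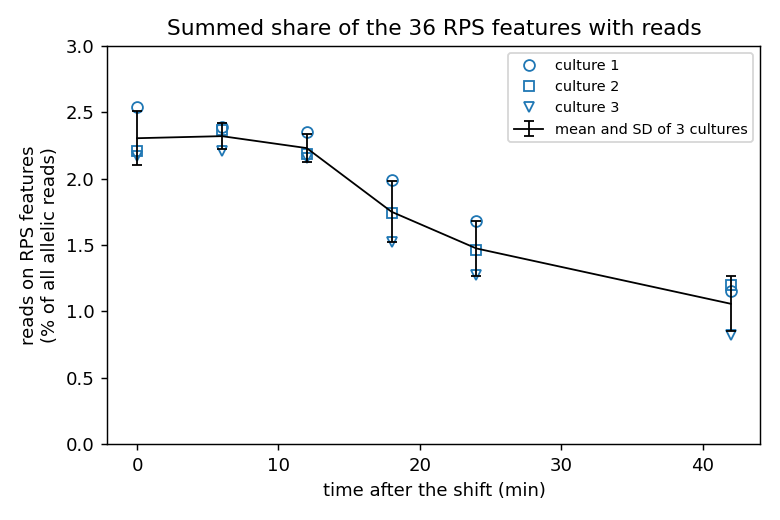
Reads on the 36 RPS features with reads as a percentage of all allelic reads (y axis) against minutes after the shift (x axis); symbols are the 3 cultures, the line and bars their mean and SD. The mean stayed between 2.23 and 2.32% up to 12 min and reached 1.06% at 42 min.

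Feature by feature, the change was tested on the reads of both alleles, scaled by edgeR's TMM factors, by the quasi-likelihood test of edgeR, with p adjusted after Benjamini and Hochberg over 2840 features; a feature was called at an adjusted p under 0.05. In all such sentences "rose" and "fell" refer to CPM, here counts scaled by library total and TMM factor. Such CPM can move otherwise than the plain share of all allelic reads. The error after ± of a log2 fold change is that change over the square root of its F statistic (3 libraries per time). The test covered the 24 RPS features with a mean of at least 20 reads per library. At 42 against 0 min 16 of them fell, 1 rose and 7 were not called. Among all features 39.0% were called lower and 37.2% higher, 76.3% in all. The median log2 fold change was -0.88 over the 24 RPS features and -0.05 over all features. Of the 15 tested features that hold the RPS gene alone, 11 fell and 1 rose (median -0.94), and of the 9 shared ones 5 fell and the others were not called (median -0.73). In 15 of the 24 all 3 libraries of 42 min lay below all 3 of 0 min and in 1 above, against 40.1% and 37.3% of all features. Scaling by library totals in place of TMM moved the median of all features to -0.37 and that of the RPS features to -1.19, and called 20 of the 24 lower and 1 higher. Leaving out the shallow library of 18 min let 26 RPS features be tested, of which 17 were called lower and 2 higher.

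**Figure D2:**
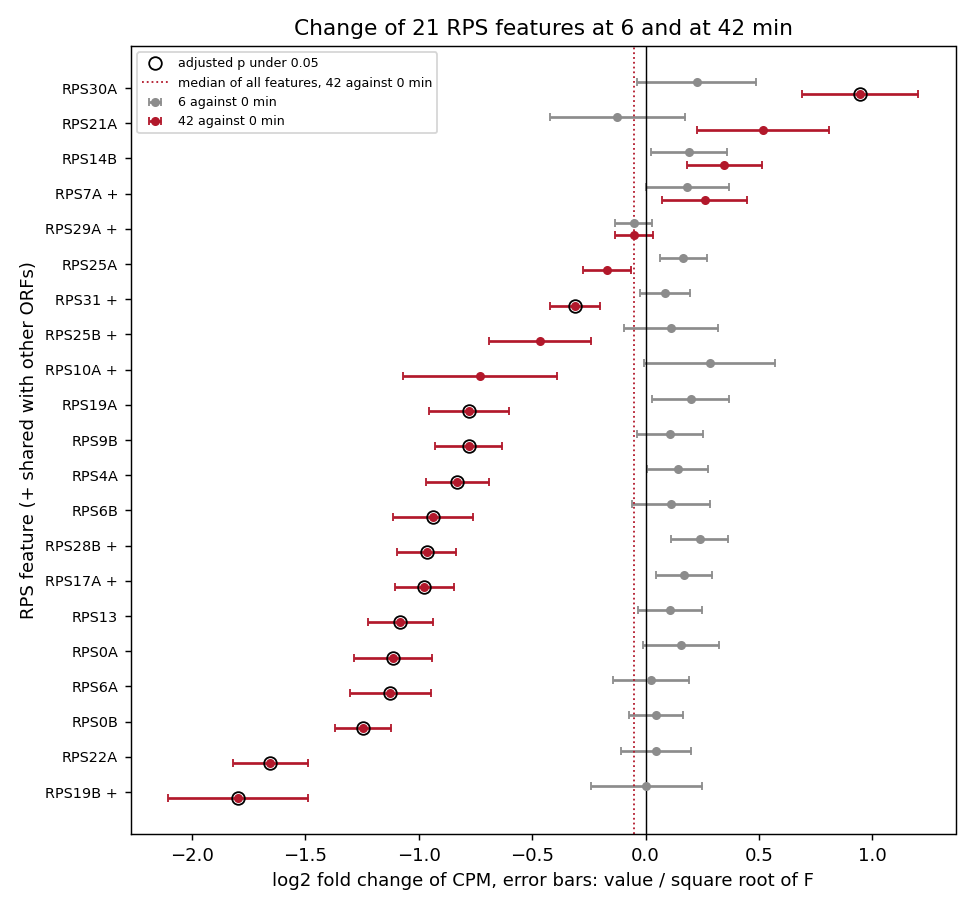
Log2 fold change of CPM (x axis) of 21 tested RPS features (y axis, sorted by the change at 42 min; + marks features shared with other ORFs) at 6 min (grey) and 42 min (red) against 0 min, n = 3 libraries per time. Bars are the same error as in the text, black rings mark an adjusted p under 0.05, and the dotted line is the median of all features at 42 min; the grey points carry 0 rings and the red points 14.

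The course had an early and a late phase. At 6 min 0 of the 24 RPS features were called with edgeR, 0 had an unadjusted p under 0.05, and both counts were also 0 with DESeq2, while 34.9% of all features were called by edgeR. With the culture as a block RPS28B was called higher at 6 min (0.24, adjusted p = 0.0259). The 24 values ran from -0.13 to 0.28 on the log2 scale, 22 of them above 0, with a median of 0.12 against 0.01 for all features; with scaling by library totals the medians were 0.02 and -0.10. At 12 min 3 were called, against 54.6% of all features, and these rose, among them RPS25A by 0.50 ± 0.11 (adjusted p = 5.09e-04) and RPS31 by 0.30 ± 0.11 (adjusted p = 0.0307). At 18 min 5 were called and these fell, RPS0B, RPS6A, RPS19A and RPS22A among them, against 30.6% of all features called lower and 29.8% higher, 60.4% in all. At 24 min 14 fell and 1 rose, against 33.4% lower and 33.0% higher, 66.3% in all. The median over the RPS features was 0.17 at 12 min, -0.19 at 18 min and -0.43 at 24 min, and over all features -0.01, -0.03 and -0.01. From 6 to 42 min 19 fell and 1 rose, with a median of -1.03, against 33.8% of all features called lower and 32.3% higher, 66.1% in all. The comparisons with 0 min share its 3 libraries, and the last shares those of 6 and 42 min with them.

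**Figure D3:**
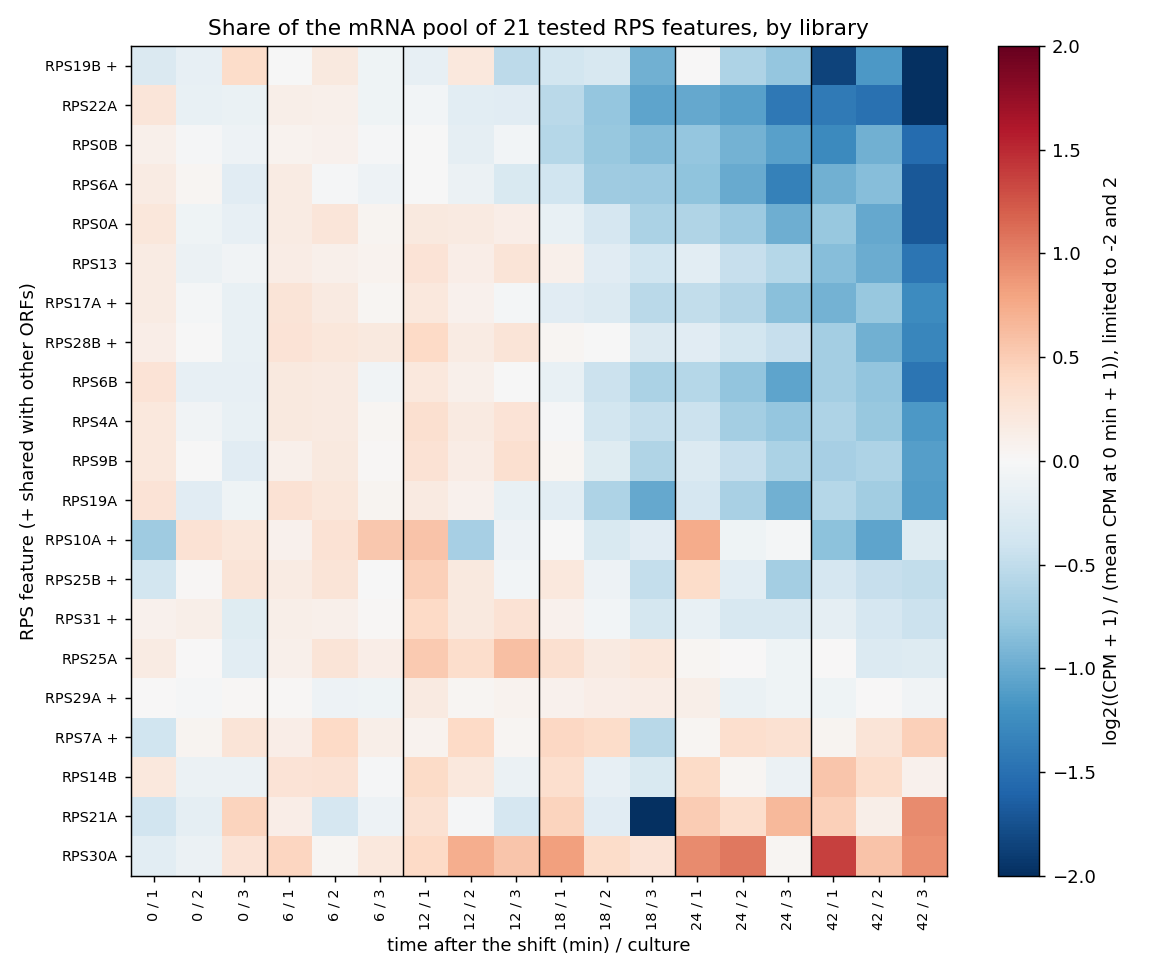
Colour gives log2 of (CPM + 1) over (mean CPM of the 3 libraries of 0 min + 1) for 21 tested RPS features (y axis; + marks features shared with other ORFs) in the 18 libraries (x axis, minutes and culture), limited to -2 and 2. Most rows are pale up to 12 min and blue at 42 min, and RPS30A is red at 42 min.

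Among the proteins of the body of the subunit, RPS22A had the largest fall of the features that hold 1 gene. RPS22A encodes uS8, which binds the central domain of the 18S rRNA, and lies at chrX:74910-75302 on the minus strand without an intron. It was at 1348, 1022 and 1037 CPM at 0 min, 663 ± 118 CPM (mean ± SD, n = 3) at 18 min and 425, 402 and 259 CPM at 42 min. Each library of 18, 24 and 42 min was below each library of 0 min, and the log2 fold change at 42 min was -1.65 ± 0.17 (adjusted p = 3.19e-08).

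RPS0B, 1 of the 2 genes for uS2, a protein needed for the last steps of 18S rRNA maturation, was at 1867, 1717 and 1627 CPM at 0 min and 714, 887 and 594 CPM at 42 min, with no overlap. It fell by 1.25 ± 0.12 on the log2 scale (adjusted p = 2.98e-08). Its copy RPS0A was at 1661, 1332 and 1271 CPM at 0 min and 841, 697 and 439 CPM at 42 min. It fell by 1.11 ± 0.17 (adjusted p = 9.41e-06), and the difference from RPS0B was not tested.

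RPS6A and RPS6B encode identical copies of eS6, whose C-terminal serines are phosphorylated when nutrient signalling is active. RPS6A fell by 1.12 ± 0.18 (adjusted p = 1.16e-05) and RPS6B by 0.94 ± 0.18 (adjusted p = 8.87e-05), and the copies share most of their sequence. RPS13, for uS15, went from 3035, 2503 and 2583 CPM to 1500, 1366 and 979 CPM without overlap and fell by 1.08 ± 0.14 (adjusted p = 1.52e-06). Smaller falls were called for RPS4A (eS4, -0.83 ± 0.14, adjusted p = 2.31e-05) and RPS9B (uS4, -0.78 ± 0.15, adjusted p = 9.51e-05).

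Of the proteins of the head of the subunit, RPS28B encodes eS28, and its protein is known to bind a hairpin in the tail of its own mRNA and promote the decay of that mRNA. The feature, shared with YLR264C-A, went from 879, 791 and 723 CPM to 498, 408 and 323 CPM and fell by 0.97 ± 0.13 (adjusted p = 1.48e-06), close to the median of the RPS features. RPS17A, for eS17, whose feature also holds NSE5, fell by 0.97 ± 0.13 (adjusted p = 1.32e-06).

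RPS19A and RPS19B encode eS19, a head protein whose human counterpart is mutated in Diamond-Blackfan anaemia. The RPS19B feature, which also holds YPT11 and YNL303W, was at 42.8, 47.0 and 68.5 CPM at 0 min and 13.9, 23.1 and 8.70 CPM at 42 min. It had the largest fall among the tested RPS features, -1.79 ± 0.31 (adjusted p = 3.19e-05), from 597 reads in all. RPS19A, a single-gene feature of 7427 reads, was at 745, 527 and 586 CPM at 0 min and 415, 383 and 286 CPM at 42 min, and fell by 0.78 ± 0.18 (adjusted p = 5.77e-04). In both copies each library of 42 min lay below each of 0 min, and the difference between the copies was not tested.

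The features with the largest rise or the smallest fall were RPS30A, RPS21A, RPS14B and RPS7A. RPS30A, for eS30, a small protein close to the decoding site, was at 28.1, 30.1 and 39.8 CPM at 0 min and 85.4, 48.7 and 62.2 CPM at 42 min. It was the RPS feature called higher at 42 min, by 0.94 ± 0.26 (adjusted p = 0.00258), on 647 reads and with no overlap. Without culture 1 it was not called (0.64, adjusted p = 0.0735). RPS30A has 192 coding bases and an intron of 430 bases, and SNV positions were not used. Reads of its spliced and unspliced RNA were therefore not told apart. The same holds for RPS21A, RPS14B and RPS7A, with introns of 322, 408 and 401 bases. RPS21A, for eS21, was at 18.7, 21.6 and 33.9 CPM at 0 min and 34.8, 26.8 and 48.5 CPM at 42 min, which overlap (0.52 ± 0.29, adjusted p = 0.114).
RPS14B encodes uS11, and surplus uS11 is known to bind the RPS14B pre-mRNA and block its splicing. It was at 623, 497 and 499 CPM at 0 min and 796, 689 and 574 CPM at 42 min, overlapping in 1 library (0.35 ± 0.17, adjusted p = 0.0658). In the fit with the culture as a block it was called (0.34, adjusted p = 0.00138), as it was without culture 3 (0.40, adjusted p = 0.0371). RPS7A, for eS7, in a feature with YOR097C, was at 44.1, 61.1 and 70.7 CPM at 0 min and 61.0, 70.7 and 82.1 CPM at 42 min, which overlap (0.26 ± 0.19, adjusted p = 0.21). Its SNVs went opposite ways from 0 to 42 min: 3 of them went from 19 to 3, 26 to 7 and 29 to 5 reads, and the deeper ones went from 52 to 57 and from 68 to 87. With the deepest SNV only RPS7A was called higher (0.72, adjusted p = 0.0231).

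RPS25A encodes eS25, a head protein that certain viral internal ribosome entry sites need. It was at 1929, 1723 and 1487 CPM at 0 min, at 2472, 2197 and 2588 CPM at 12 min and at 1719, 1415 and 1431 CPM at 42 min. The libraries of 12 min were above all of 0 min, and those of 42 min overlapped with those of 0 min (-0.17 ± 0.11, adjusted p = 0.148). RPS25A was called lower with scaling by library totals (-0.49, adjusted p = 9.77e-05) and with the deepest SNV of each feature only (-0.31, adjusted p = 0.0363). Its deepest SNV held 24882 of its 25013 reads, so its own counts hardly differ in that setting. The second value is therefore not separate evidence from its SNVs. Its copy RPS25B, in a feature with YLR334C, was at 72.2, 95.0 and 112 CPM at 0 min and 73.2, 67.0 and 65.9 CPM at 42 min, which overlap (-0.47 ± 0.22, adjusted p = 0.0655); with the culture as a block it was called (-0.49, adjusted p = 0.038). It was also called with scaling by library totals (-0.79, adjusted p = 0.00499), without culture 1 (-0.65, adjusted p = 0.0128) and with its deepest SNV only (-1.49, adjusted p = 1.95e-05), 627 of its reads. RPS31 encodes eS31 fused to ubiquitin, in a feature of 6 ORFs with UPS2, APS1 and DPH5 among them. It went from 1412, 1452 and 1131 CPM to 1174, 1060 and 987 CPM, overlapping in 1 library, and fell by 0.31 ± 0.11 (adjusted p = 0.0172). Without culture 2 it was not called (-0.23, adjusted p = 0.231).
The RPS29A feature, shared with VAC14 and REH1, had a log2 fold change of -0.05 ± 0.08 (adjusted p = 0.6), against -0.37 with library totals (adjusted p = 0.0022) and 0.94 with the deepest SNV only (adjusted p = 4.28e-05). The RPS10A feature, shared with YOR293C-A, was at -0.73 ± 0.34 (adjusted p = 0.0594). With the culture as a block RPS10A was called (-0.74, adjusted p = 0.049), and 20 RPS features in all.

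In shared features SNVs of one feature can lie in different transcripts, and depth per SNV differed widely. In the RPS31 feature the deepest SNV (13203 reads) went from 3116 reads at 0 min to 1516 at 42 min (3 libraries summed), while the next (1997 reads) went the other way, from 180 to 613. Its 5 shallow SNVs, each with under 10% of the reads of the deepest, held 2597 reads, and their share of the library at 42 min was 29.7% of that at 0 min (mean of 3 libraries at each time). Without these 5 the log2 fold change of the feature was -0.17 and it was not called (adjusted p = 0.222). With the 14 RPS31 SNVs outside the table of the whole series added, the log2 fold change of that feature was 0.13 (adjusted p = 0.225) in place of -0.31.

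The 13 RPS features too shallow for the abundance test held 0 to 349 reads each. For 11 of the 12 with reads in the series table, the pooled share of allelic reads was lower at 42 than at 0 min. With scaling by library totals the median log2 fold change of all tested features was also below 0 (-0.37). How many of the other untested features were lower was not counted, so the 11 are not set apart from them. RPS16B, for uS9, went from 43 reads at 0 min to 8 at 42 min and RPS26B, for eS26, from 43 to 10. The feature of RPS29B, TSR1 and RAD59 had 116 reads at 0 min and 3 at 42 min. The RPS22B feature, which also holds the small nucleolar RNA snR44, was the exception, at 25.8 CPM (library totals) at 0 min and 34.5 CPM at 42 min, from 73 and 85 reads.

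Other genes of the same machine were counted in the same way, against 39.0% of all features called lower and 37.2% higher at 42 min. Of 46 tested features with a gene for a large-subunit (RPL) or stalk (RPP) protein, 35 fell and 3 rose at 42 min, with a median of -0.98. Among 15 tested features for 40S assembly factors and chaperones 12 fell and 1 rose, with a median of -2.55. Among these NOB1, the endonuclease that makes the 18S rRNA end, fell by 3.45 ± 0.24 (adjusted p = 2.24e-10). RRP12, a factor for export of pre-ribosomes, had the lowest value of this list, -8.17 ± 0.40 (adjusted p = 3.08e-12). Of 11 tested features for proteins that bind the 40S subunit, mostly initiation factors, 9 fell and 2 rose, with a median of -1.01. Of 9 tested features for regulators of ribosomal protein genes 4 fell and 1 rose, a share of falls near that of all features. The falls were FHL1 (-2.60 ± 0.28, adjusted p = 9.33e-08), RAP1 (-1.41 ± 0.15, adjusted p = 6.88e-08), TOR2 (-0.89 ± 0.15, adjusted p = 1.96e-05) and SFP1 (-0.27 ± 0.09, adjusted p = 0.0122). The rise was the feature that holds the kinase gene YAK1 with TIM17 and IRC9 (2.85 ± 0.27, adjusted p = 1.15e-08). No test of the difference between these lists was made.

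The parental alleles were compared at 0 min in 29 RPS features with a mean of at least 20 reads per library at 0 min, by the same edgeR test on the BY and RM reads of the 3 libraries and a term for library. Of these, 6 had more BY reads, 8 had more RM reads and 15 were not called; among all features 10.5% were called for BY and 12.5% for RM, 23.0% in all. The median size of the log2 ratio of BY to RM reads was 0.41 in the RPS features and 0.19 in all features. The reads of all RPS features summed were near balance, at 48.7% ± 0.352 (SD, n = 3) BY at 0 min and 49.4% ± 0.272 at 42 min. Differences were called at deep features: RPS0B (0.41 ± 0.04, 57.0% BY), RPS9B (0.32 ± 0.04), RPS14B (-0.39 ± 0.07), RPS28B (-0.55 ± 0.06) and RPS19A (-0.69 ± 0.07), with adjusted p from 3.38e-08 to 1.28e-04. With the deepest SNV only, RPS28B (-0.16, adjusted p = 0.235) and RPS14B (-0.20, adjusted p = 0.17) were not called, and RPS14B was also not called with DESeq2 (adjusted p = 0.0717). In RPS0B the deepest SNV (11868 reads) was at 61.3% BY over all libraries and the next (6531 reads) at 48.4%, on the other side of the middle. In RPS19A 1 SNV held 95.2% of the reads, at 38.0% BY over all libraries, and the other 5 (357 reads) were together at 50.4%. RPS9B was not called without the term for library (0.33, adjusted p = 0.111). RPS4A (0.19 ± 0.05, adjusted p = 0.00978) was not called without culture 1 (0.17, adjusted p = 0.0743) or culture 2 (0.15, adjusted p = 0.126). RPS25B (-0.50 ± 0.16, adjusted p = 0.0316) was not called without culture 2 (-0.56, adjusted p = 0.11) or culture 3 (-0.28, adjusted p = 0.491). With DESeq2 the adjusted p was 0.413 for RPS4A and 0.82 for RPS25B. RPS13, RPS25A, RPS22A, RPS31 and RPS0A, with log2 ratios from -0.04 to 0.08 and errors of at most 0.05, were not called.

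RPS6A, RPS6B, RPS22B and RPS17A were among the 6 features with the largest ratios, and their SNVs gave unlike shares or held few reads. RPS6A had 82.4, 80.0 and 84.7% BY reads at 0 min (log2 ratio 2.23 ± 0.08, adjusted p = 1.45e-15) and RPS6B 29.9, 27.6 and 27.8% (-1.33 ± 0.05, adjusted p = 1.13e-14), each copy on its own side in all 3 libraries. Within RPS6A the deepest SNV (4576 reads) had 95.3% BY and the next (1633 reads) 54.2%. Within RPS6B the deepest SNV (8618 reads) had 16.5% BY and the next (2931 reads) 58.8%. So in both copies 1 deep SNV was far from the middle and another was near it, and which copy a read came from was not tested. RPS22B had 87.5, 66.7 and 71.4% BY reads on 73 reads at 0 min (1.29 ± 0.34, adjusted p = 0.00684), and was not called with DESeq2 (adjusted p = 0.367) or without the term for library (adjusted p = 0.113). RPS17A had 65.3, 61.9 and 60.1% (0.71 ± 0.06, adjusted p = 1.30e-08), with 68.8% BY at its 3 deep SNVs (7040 reads) and 46.1% at 22 shallow ones (1753 reads). Its copy RPS17B was at 57.9, 51.7 and 59.1% on 70 reads and was not called (0.33 ± 0.32, adjusted p = 0.547). RPS19A was at 38.3% ± 2.50 and RPS19B at 53.9% ± 7.78 BY (SD, n = 3), RPS25A at 50.0% ± 0.824 and RPS25B at 43.1% ± 5.34.

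**Figure D4:**
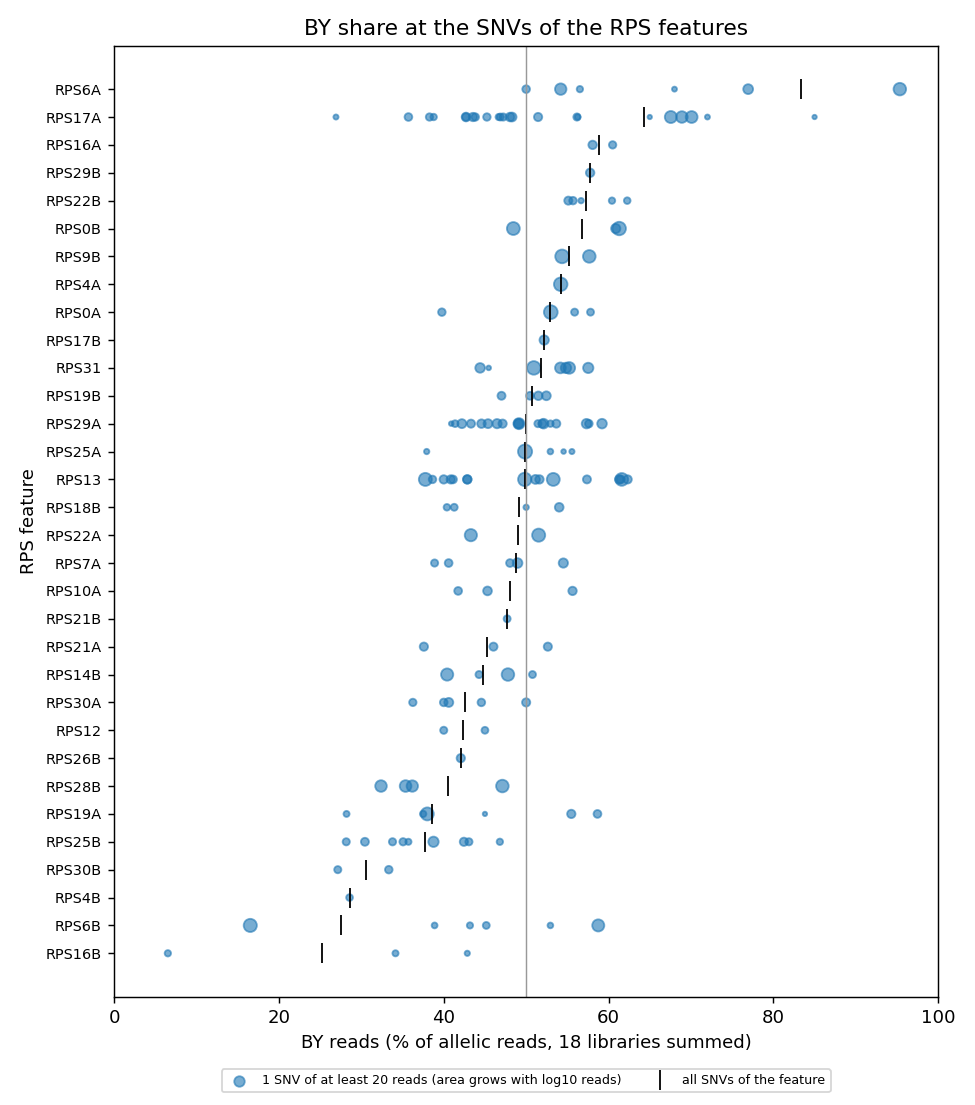
BY reads as a percentage of the allelic reads of all 18 libraries (x axis) at each SNV of at least 20 reads (blue points, area growing with log10 reads) and over all SNVs of the feature (black tick) for 32 RPS features (y axis). RPS6A has a deep SNV at 95.3% BY and RPS6B one at 16.5%, and both have other SNVs near the middle.

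The SNVs of a gene without a near copy also differed. RPS13, which has none, had 15 SNVs of at least 100 reads that ran from 37.8 to 62.3% BY, with 49.8% at the deepest. Over the 20 RPS features with at least 2 such SNVs the median range within a feature was 14.3 percentage points, and 7 of the 20 ranged over more than 20 points. Among 2409 features of the whole table the median was 12.7 points, and 577 ranged over more than 20.

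Differences in decay between the alleles were tested as a change of the log2 ratio of BY to RM reads over 42 min, with a term for each library and a slope linear in time, by the edgeR test with p adjusted over 2808 features. Of the 24 RPS features tested, 2 were called, RPS0A among them, both with a rising BY share. Among all features 6.70% were called, 3.63% with a rising and 3.06% with a falling BY share. At an unadjusted p under 0.05 there were 5 of the 24, against 16.4% of all features. Of the RPS features, RPS0A alone was called with DESeq2, with all SNVs and without the library of culture 3 at 18 min.

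RPS0A had 51.2, 51.5 and 51.3% BY reads in cultures 1, 2 and 3 at 0 min and 59.6, 58.0 and 57.8% at 42 min. The mean share was 52.1% at 6 min, 53.3% at 12 min, 56.1% at 18 min, 52.8% at 24 min and 58.5% ± 0.996 (SD, n = 3) at 42 min. Each library of 42 min was above each of 0 min, while the libraries of 24 min, at 53.2, 53.6 and 51.5%, were back below those of 18 min. The slope was 0.37 ± 0.08 on the log2 scale over 42 min (adjusted p = 8.78e-04), and without culture 1 it was 0.32 (adjusted p = 0.0615). One SNV held 98.7% of the 16652 reads, so this change was measured at a single site. RPS0A and RPS0B shared none of the exact windows of 50 coding bases in the R64 genome. The RM sequence, untranslated regions and mapping with mismatches were not examined, so exchange of reads between the copies was not tested. RPS0B, from 57.0% ± 0.188 at 0 min to 54.4% ± 1.90 at 42 min, was not called (-0.14 ± 0.08, adjusted p = 0.355). The difference in slope between the copies was not tested.

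**Figure D5:**
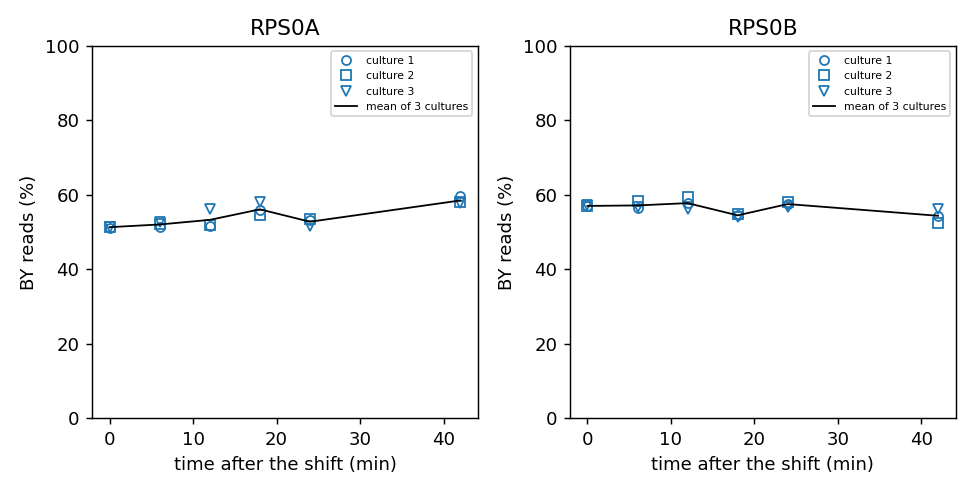
BY reads as a percentage of allelic reads (y axis) against minutes after the shift (x axis) for RPS0A and RPS0B; symbols are the 3 cultures and the line their mean. RPS0A moves from 51.3% to 58.5% and RPS0B from 57.0% to 54.4%.

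Among the 22 RPS features not called, 17 with at least 1000 reads had slopes from -0.48 to 0.29 with errors from 0.06 to 0.27, against 0.37 ± 0.08 in RPS0A. RPS17A had 0.29 ± 0.12 (adjusted p = 0.162) and passed with time as a factor in place of a line (42 against 0 min, 0.44, adjusted p = 0.0211). It also passed with only SNVs of at least 10% of the reads of the deepest (0.40, adjusted p = 0.0496), a setting chosen after seeing the data. RPS13 (0.04 ± 0.06) and RPS25A (0.01 ± 0.07) had the narrowest errors. The other 5, with under 1000 reads, ran from -0.45 to 0.53 with errors from 0.28 to 0.48.
In the lists of related genes 1 of 45 tested RPL and RPP features was called for decay, against 6.70% of all features, RPL14A (-0.50 ± 0.13, adjusted p = 0.00849). Among 15 features of 40S assembly factors 2 were called, LTV1 (-0.82 ± 0.21, adjusted p = 0.00555) and YAR1 (0.68 ± 0.22, adjusted p = 0.0414). Ltv1 is built into the head of the pre-40S subunit and Yar1 is the chaperone of uS3. Of 9 features of regulators and 11 of 40S-bound proteins 0 were called by edgeR or DESeq2; at an unadjusted p under 0.05 there were 0 and 1 with either tool.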

How the data were processed

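Poly(A) RNA of 18 libraries (3 cultures, 6 times) was prepared with a TruSeq kit that does not mark strand and sequenced in 1 lane as paired reads of 50 bases, per the labels' protocols. Deposited were raw read counts for each allele of an SNV. The authors mapped reads to each parental genome on its own, per the file headers, removed duplicates and indels, masked poorly mapping sites, counted reads inside features with untranslated regions, and joined overlapping genes into 1 feature. The submitters' processing notes name BWA 0.5.9, Picard 1.43 and sacCer3. A read over several SNVs can count at each, there are no molecular identifiers, and SNV positions were not used here, only an index.

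Counts were taken from the table of the whole series (30497 of 35952 SNVs) and summed per feature and allele. Tests covered features that averaged 20 or more allelic reads in a library, with edgeR 4.0.16 in R 4.3.3 (quasi-likelihood test, Benjamini-Hochberg adjustment over all tested features, threshold 0.05). The slope of the parental ratio also required an average of 2 or more reads of each allele. The parental ratio at 0 min had no such minimum per allele, and its average was taken over the libraries of 0 min. Abundance was fitted with TMM factors and the 6 times as levels; the slope of the parental ratio used the 36 allele columns and library terms. CPM were computed here. Near copies were found with blastn 2.17.0, and DESeq2 1.42.0, other SNV sets, other scalings, no read filter, the culture as a block and left-out libraries were the alternatives. Fits were tested on simulated counts. Tables and plots were made with matplotlib 3.10.9, numpy 2.4.6 and pandas 2.3.3 under Python 3.11.15.

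The RPS genes and the lists were chosen with earlier results of these data known. Full values were given to the features called for decay, to the 6 largest parental differences at 0 min, to the 4 largest falls and the 4 smallest falls or largest rises at 42 min, and to pairs with both copies tested; others were named to account for the features. Results of a few genes are not reported here; they stay in counts, medians and summed shares. Cultures are independent and each was sampled at every time, per the labels, so replicate numbers mark pairs. Deviations from the mean of a time correlated with a median of 0.159 (from -0.032 to 0.469, 45 pairs) within a culture and -0.067 between cultures. Such deviations cancel over the cultures at each time, so the value between cultures follows largely from that within. Libraries of the same time were compared in pairs for repeats (chi-square over its degrees of freedom, 1.35 to 8.61). Since a read can count at several SNVs, these values alone do not exclude a repeat. Libraries of different times were not compared in this way. The headers of the third culture call it R4 where the sample titles say R3; the titles were used.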

Additional observations from a re-analysis of the deposited data

Results flagged for a closer look

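For 4 RPS features more than 3 reads lay at SNVs outside the table of the whole series and were not part of the main measurement; 2 further features had 1 and 3 such reads. RPS31 had 14352 such reads at 14 SNVs, with 54.2% BY, RPS28B 15995 at 4 SNVs, with 43.1% BY, RPS29A 287 at 1 SNV, with 55.1% BY, and RPS22B 11 at 9 SNVs. The reads of RPS28B outside the table exceeded the 10296 inside it. Why that table leaves them out is not stated in the labels or headers.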

How the results depend on the processing

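Depth limits the RPS features under 1000 reads, whose slopes have errors from 0.28 to 0.48. Unlike shares at the SNVs of a feature limit the parental ratios, also in RPS13, which has no near copy. Whether near copies add to this was not tested. The setting with SNVs of at least 10% of the deepest was chosen after seeing the data. Of the RPS features (2 for decay, 14 for parental ratio, 17 at 42 and 0 at 6 against 0 min), the counts of calls moved as follows. For decay 1 was called with all SNVs, without SNVs under 2% or over 98% BY, with the deepest SNV only, with DESeq2 and without the library of culture 3 at 18 min, and 0 to 2 without 1 culture each. For the parental ratio 9 were called without the replicate block, 10 with DESeq2, 10 of 24 with the deepest SNV only, and 12 to 13 without 1 culture each. With no read filter 26 of 36 were called at 42 min and 1 at 6 min; with the replicate block 1 was called at 6 min, RPS28B (0.24, adjusted p = 0.0259), 20 at 42 min and 2 for decay. Without 1 culture each, 17 to 19 were called at 42 min, 0 at 6 min and 17 to 20 from 6 to 42 min. RPS31 turned to 0.13 with all SNVs and RPS29A to 0.94 (adjusted p = 4.28e-05) with the deepest SNV only; the cause was not tested. Of all features, 188 were called for decay, and 42 with the deepest SNV only, 122 with DESeq2, 86 without the libraries of 0 min and 98 to 129 without 1 culture each. For the parental ratio 697 were called, and 392 with the deepest SNV only, 229 with DESeq2, 298 without the block and 428 to 561 without 1 culture each. With the deepest SNV only 1439 were called at 42 min, 479 at 6 min and 1231 from 6 to 42 min, in place of 2166, 991 and 1876, and without 1 culture each 540 to 807 at 6 min. Fewer features pass the read filter with the deepest SNV alone. The summed share stayed within 1 SD in the other settings it was computed under.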
